A study of Mus musculus with 1 sample.

Results

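The genes described here are 9 effectors and brakes of the Hippo pathway: *Yap1*, *Wwtr1*, *Tead1*, *Tead2*, *Tead3*, *Tead4*, *Lats1*, *Lats2* and *Amotl2*. They were taken by symbol from the 32285 genes of the count matrix, and all 9 symbols were found. Their transcripts were counted in 1 single-cell RNA-seq library (10x Genomics 3′ v3.1 chemistry) made from the adrenal medullae of mice of wild type genotype, taken on postnatal day 15 and pooled from 10 adrenals of 5 mice of both sexes. The medullae were dissected by hand, which left some cortex attached, and no treatment or second genotype is part of this library. Because there is 1 library and no replicate, no test between conditions was possible and cells were not treated as replicates.

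The Hippo pathway is a kinase cascade that restrains growth. Its last kinases, LATS1 and LATS2, phosphorylate the coactivators YAP (encoded by *Yap1*) and TAZ (encoded by *Wwtr1*) and keep them out of the nucleus, and when that restraint is lifted YAP and TAZ bind the TEAD transcription factors, encoded by *Tead1* to *Tead4*, and switch on genes such as *Ccn1* and *Ccn2*. AMOTL2 is an angiomotin family scaffold that holds YAP and TAZ at cell junctions, and *Amotl2* and *Lats2* are themselves known targets of YAP and TAZ. In many tissues YAP and TAZ are active in progenitor or glia-like cells. Transcript counts do not show whether the proteins are phosphorylated or nuclear.

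The matrix holds 11214 barcodes with 500 to 33809 unique molecular identifiers (UMIs, each standing for 1 captured transcript) per barcode. Quality control kept 10139 cells, with a median of 3567 UMIs and 1611 genes. Clusters with enough markers of a cell type were called "X-like" after it, which gave 13 classes with 9358 cells. A further 738 cells in clusters with markers of more than 1 cell type were left out, as were 43 cells with none. The library is labelled as adrenal medulla, yet cortex-like cells outnumbered the medullary ones: 3409 cells were non-cycling cortex-like and 305 cycling cortex-like, against 2055 chromaffin-like, 131 cycling chromaffin-like, 416 transitioning-like and 178 sustentacular-like cells. The rest were 1649 non-cycling and 501 cycling endothelial-like, 88 fibroblast-like and 626 immune-like cells. The fibroblast-like cluster was led by genes that include *Mgp*, *Tagln* and *Dcn*, but goes partly against its name: its 10 endothelial markers summed to 4671 CPM (UMIs per 1000000 of the class) with 0 of them at 0, against 3302 CPM for its 8 fibroblast markers with 2 at 0, and 48 of its 88 cells (54.5%) had UMIs of at least 2 endothelial markers.

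Chromaffin-like cells are the hormone-producing cells of the medulla, divided here into 1668 adrenaline cells with *Pnmt* and 387 noradrenaline cells without it. Sustentacular-like cells carry markers of the glia-like support cells of the medulla, and transitioning-like cells carry chromaffin and sustentacular markers together. The sustentacular-like cells had the fewest UMIs, with a median of 1146 per cell, against 3011 in chromaffin-like cells. The library median was 3567 UMIs, more than 3 times as many, but the markers *Scn7a*, *Col28a1*, *Kcna1* and *Cdh19* were among the 10 leading genes of the cluster, so the name was kept. Other leading genes were *Apod*, *Fbln5*, *Col3a1*, *Cryab* and *Postn*.

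Levels are given as CPM, the UMIs of a gene summed over the cells of a class and scaled to 1000000 UMIs of that class, with exact Poisson 95% intervals in brackets. Ratios between classes have exact conditional binomial 95% intervals, and shares of cells have exact Clopper-Pearson 95% intervals. All of these intervals cover counting error only, and the spread between animals or libraries is not in them. Because reads come from the 3′ end and values are not divided by length, each gene is compared with itself across classes, and genes are set against each other only as shares that are then compared across classes.

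The 9 genes divided into those found in nearly every class and those almost missing from chromaffin-like cells. *Tead1* and *Lats1* were well detected in chromaffin-like cells, at 104 CPM [97.6 to 111] and 33.6 CPM [29.9 to 37.7]. *Yap1*, *Wwtr1*, *Tead2*, *Lats2* and *Amotl2* together had 28 UMIs in the 2055 chromaffin-like cells. Each of these 5 genes was higher in endothelial-like cells, and 4 of them were higher in sustentacular-like cells, *Yap1* resting on a single UMI there. *Tead3* and *Tead4* were rare everywhere, with 34 and 54 UMIs in all cells that passed quality control.

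In the GENCODE annotation of GRCm38 the coactivator genes lie at chr9:7931999-8004596 on the minus strand (*Yap1*) and chr3:57455649-57575910 on the minus strand (*Wwtr1*). The TEAD genes lie at chr7:112679318-112906807 on the plus strand (*Tead1*), chr7:45215753-45233644 on the plus strand (*Tead2*), chr17:28331671-28350817 on the minus strand (*Tead3*) and chr6:128224288-128300823 on the minus strand (*Tead4*). *Lats1* lies at chr10:7681214-7716460 on the plus strand, *Lats2* at chr14:57689662-57758388 on the minus strand and *Amotl2* at chr9:102716672-102733418 on the plus strand. The counts are sums over each gene as a whole and do not tell exons or isoforms apart.

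**Figure D1:**
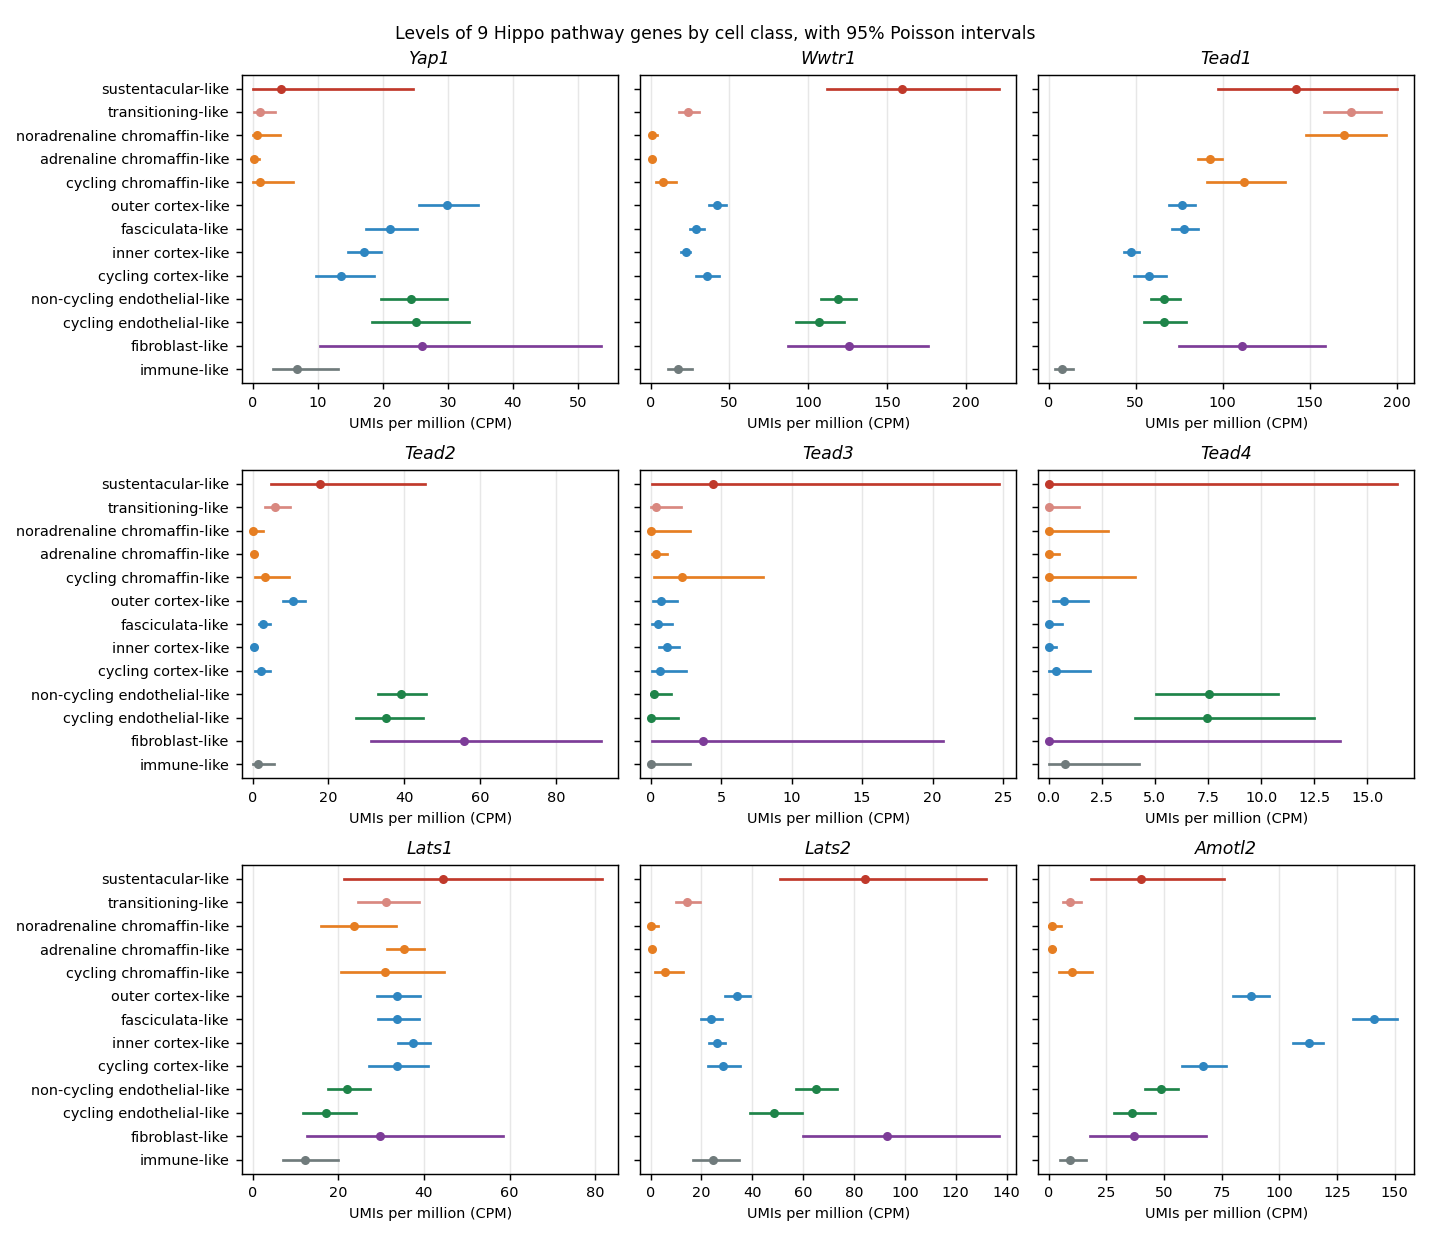
Level of each of the 9 Hippo pathway genes in the 13 cell classes, in CPM on linear axes that differ between panels, with points for the level of a class and bars for the exact Poisson 95% interval from counting error. *Wwtr1* is at 159.7 CPM in sustentacular-like and at 0.761 to 0.814 CPM in noradrenaline and adrenaline chromaffin-like cells, while *Tead1* is at 92.6 to 174 CPM throughout the medullary classes.

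*Wwtr1* encodes TAZ, the paralog of YAP. It had 36 UMIs in sustentacular-like cells, a level of 159.7 CPM [112 to 221]. In chromaffin-like cells it had 7 UMIs, or 0.806 CPM [0.324 to 1.66], of which 1 was in noradrenaline and 6 in adrenaline cells. The sustentacular-like level was 198 times the chromaffin-like level [86.9 to 527]. Transitioning-like cells lay in between at 23.6 CPM [18.0 to 30.4] from 60 UMIs, 29.3 times the chromaffin-like level [13.4 to 76.0] and 0.148 times the sustentacular-like level [0.0963 to 0.230]. With each cell named from its own markers the transitioning-like to chromaffin-like ratio was 14.1 [7.81 to 26.8], and with 30 principal components it was 20.6 [10.4 to 45.2]. Outside the medulla *Wwtr1* stood at 126 CPM in fibroblast-like, 119 CPM in non-cycling endothelial-like and 107 CPM in cycling endothelial-like cells. The intervals of these 3 classes and of sustentacular-like cells overlap, so their order is not set by these counts: the ratio of sustentacular-like to endothelial-like cells was 1.35 [0.930 to 1.89]. Cortex-like classes were lower, from 22.2 CPM in inner to 42.1 CPM in outer cortex-like cells, and immune-like cells were at 17.6 CPM.

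The share of cells with a *Wwtr1* UMI gave the same picture. It was 16.9% in sustentacular-like cells [11.7 to 23.2], 21.8% in endothelial-like cells [19.9 to 23.9] and 0.341% in chromaffin-like cells [0.137 to 0.701], at median depths of 1146, 1736 and 3011 UMIs. Immune-like cells, which are not known for TAZ, had a share of 2.56% at a median of 1682.5 UMIs. With each cell thinned to 1000 UMIs the shares were 14.8%, 9.59%, 0.0495% and 0.543%, in the same order, with 56, 272, 34 and 74 shallower cells left out. The immune-like cells do not give a clean background, because 51 of them (8.15%) had UMIs of at least 2 endothelial markers and those markers summed to 1039 CPM in the class. Without these cells the immune-like level of *Wwtr1* was 0.925 CPM, from 1 UMI in 575 cells, next to 0.806 CPM in chromaffin-like cells.

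*Yap1*, which encodes YAP, was barely seen in the medulla. In sustentacular-like cells it had 1 UMI, or 4.44 CPM [0.112 to 24.7], and in chromaffin-like cells 3 UMIs, or 0.346 CPM [0.0713 to 1.01]. The ratio of 12.8 has an interval of 0.244 to 159.9, so a difference between these classes was not detectable at this depth. Transitioning-like cells had 3 UMIs at 1.18 CPM, at a median depth of 5105.5 UMIs. In the share of cells, 0.562% of sustentacular-like cells had a *Yap1* UMI against 1.28% of immune-like cells. Without the immune-like cells that had endothelial markers, the immune-like level of *Yap1* was 3.70 CPM from 4 UMIs, within the interval of the sustentacular-like level. In the other lineages the gene was readily seen, with its highest level in outer cortex-like cells at 29.8 CPM [25.5 to 34.7]. Non-cycling endothelial-like cells were at 24.4 CPM [19.7 to 29.9] from 94 UMIs, 70.6 times the chromaffin-like level [23.4 to 349], and cortex-like cells at 21.4 CPM [19.5 to 23.4] were 61.9 times as high [21.0 to 301]. Fibroblast-like cells were at 26.0 CPM from 7 UMIs. The sustentacular-like to endothelial-like ratio was 0.182 [0.00455 to 1.04], an interval that only just includes equal levels.

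Of the UMIs that the 2 coactivators had together in a class, *Yap1* took 1 of 37 in sustentacular-like cells, or 2.70% [0.0684 to 14.2], and 3 of 63 in transitioning-like cells, or 4.76% [0.993 to 13.3]. In non-cycling endothelial-like cells it took 17.1% of 551 UMIs [14 to 20.5], and in fibroblast-like cells 17.1% of 41. Non-cycling cortex-like cells had the most even pair, with 41.5% of 398 UMIs in outer, 42.2% of 287 in fasciculata-like and 43.4% of 410 in inner cortex-like cells. Cycling cortex-like cells were lower, at 27.7% of 141 [20.5 to 35.8]. The sustentacular-like interval overlaps the endothelial-like one slightly and lies well below those of the 3 non-cycling cortex-like classes. Chromaffin-like cells gave only 10 UMIs of the pair, too few to place them.

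**Figure D2:**
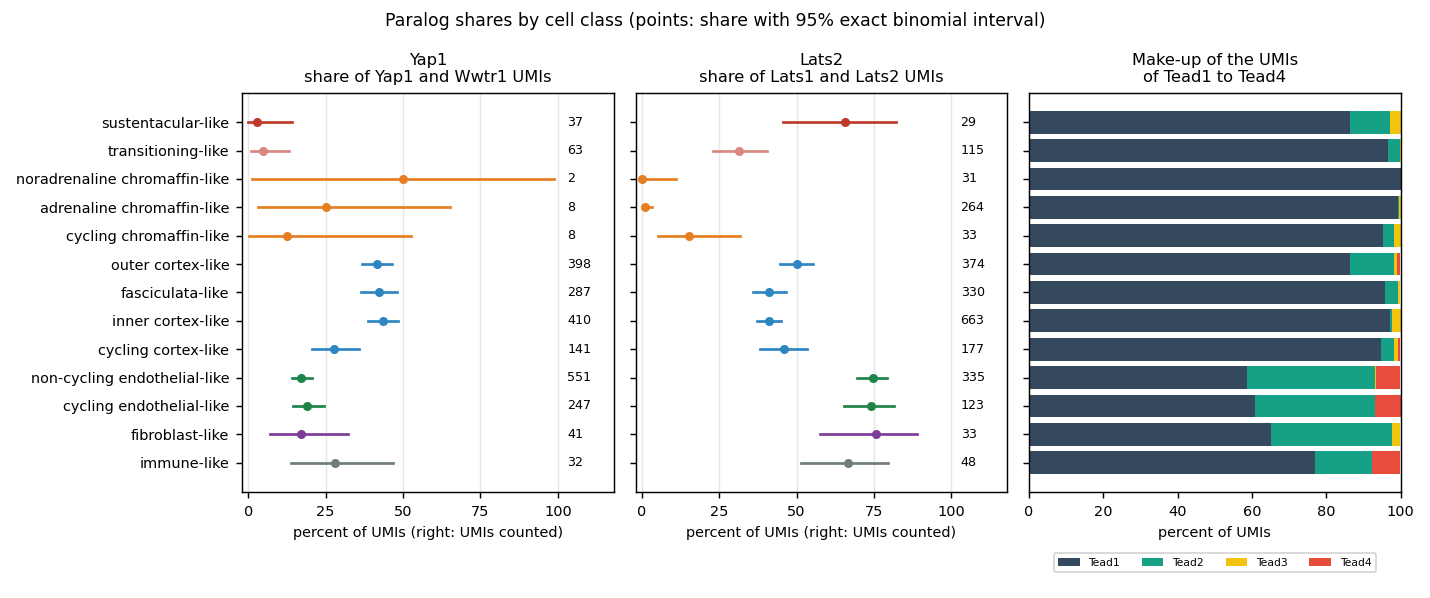
Share of *Yap1* in the UMIs of *Yap1* and *Wwtr1* (left), share of *Lats2* in the UMIs of *Lats1* and *Lats2* (middle), each with exact 95% intervals and the UMIs counted, and the make-up of the UMIs of *Tead1* to *Tead4* (right), in percent by cell class. *Lats2* takes 1.14% in adrenaline chromaffin-like and 74.6% in non-cycling endothelial-like cells, and *Tead1* takes 58.7% of Tead UMIs in non-cycling endothelial-like cells.

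The promoters of the genes were searched for GGAATG on either strand (CATTCC on the printed strand), the letters of the core that TEAD factors bind. The table of RefSeq promoters (GRCm38.p6, from 250 bases before to 50 bases after each start) has entries for 7 of the 9 genes, all but *Tead1* and *Tead4*, and 5 of those 7 genes hold the letters: *Yap1*, *Wwtr1*, *Tead3*, *Lats2* and *Amotl2*. Among all 27025 genes with an entry, 16.6% hold them in any promoter, and among all 32851 promoters 14.7% do. Of 13 further target genes of YAP and TAZ with an entry, 5 hold them, *Ccn1* among them. The upstream 250 bases of *Wwtr1* are shown because this gene has the most UMIs of the 9 in sustentacular-like cells and few in chromaffin-like cells. They lie at chr3:57575911-57576160 on the minus strand, overlap no annotated exon, and have the letters in capitals, the first of which is 136 bases before the start.

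Wwtr1, upstream of the start: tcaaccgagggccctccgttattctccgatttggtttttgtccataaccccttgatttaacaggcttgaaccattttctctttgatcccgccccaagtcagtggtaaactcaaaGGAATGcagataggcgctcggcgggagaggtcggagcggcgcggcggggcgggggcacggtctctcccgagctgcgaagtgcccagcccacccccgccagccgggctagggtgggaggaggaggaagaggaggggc

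For the other genes that were near 0 in chromaffin-like cells, and for the target *Ccn1*, 30 bases around the letters are shown, with the letters in capitals. The *Yap1* stretch is at chr9:8004720-8004749 on the minus strand, the *Lats2* stretch at chr14:57746102-57746131 on the minus strand, the *Amotl2* stretch at chr9:102717727-102717756 on the plus strand and the *Ccn1* stretch at chr3:145650071-145650100 on the minus strand. The stretches of *Lats2* and *Amotl2* overlap an annotated exon. A match is only a match of letters and was not measured as a bound site.

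Yap1: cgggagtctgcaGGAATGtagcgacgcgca
Lats2: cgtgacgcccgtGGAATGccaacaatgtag
Amotl2: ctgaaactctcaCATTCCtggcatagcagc
Ccn1: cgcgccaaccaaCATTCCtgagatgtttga

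The TEAD factors bring the DNA-binding domain to the complex that YAP and TAZ form. *Tead1* was the most widely found of the 4. It was highest in transitioning-like cells at 174 CPM [158 to 191] and noradrenaline chromaffin-like cells at 169.7 CPM [148 to 194], followed by sustentacular-like cells at 142 CPM [97.1 to 200.4], whose wide interval includes both. Adrenaline chromaffin-like cells had 92.6 CPM [85.8 to 99.8], so the noradrenaline level was 1.83 times the adrenaline level [1.57 to 2.14]. The adrenaline cells came from 3 clusters at 61.1, 106 and 80.8 CPM, the first with a median depth of 2299 UMIs and the second with 5640. Noradrenaline cells, with a median of 2639 UMIs, were above each of the 3.

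Outside the medulla *Tead1* was mostly lower. It ranged from 47.5 CPM in inner to 78.0 CPM in fasciculata-like cortex cells, was at 66.5 CPM in non-cycling and 66.1 CPM in cycling endothelial-like cells, and reached 111 CPM in fibroblast-like cells. Endothelial-like cells had 0.638 times the chromaffin-like level [0.553 to 0.734]. Immune-like cells were lowest, at 7.65 CPM [3.67 to 14.1]. The chromaffin-like cells, with the lowest levels of *Yap1* and *Wwtr1*, had a higher *Tead1* level in CPM than the endothelial-like cells did.

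*Tead2* had its highest levels in the endothelial-like and fibroblast-like classes. It was at 39.0 CPM [33.0 to 45.7] in non-cycling endothelial-like, 35.2 CPM in cycling endothelial-like and 55.7 CPM [31.2 to 91.8], from 15 UMIs, in fibroblast-like cells. Without the fibroblast-like cells that had UMIs of at least 2 endothelial markers, 4 *Tead2* UMIs were left there, at 59.2 CPM. Sustentacular-like cells had 4 UMIs at 17.7 CPM [4.83 to 45.4], transitioning-like cells 15 UMIs at 5.91 CPM [3.31 to 9.75], and chromaffin-like cells 2 UMIs at 0.230 CPM [0.0279 to 0.832]. In the cortex it fell from 10.7 CPM in outer to 2.79 CPM in fasciculata-like and 0.288 CPM in inner cortex-like cells. Of its 59 UMIs in outer cortex-like cells, 21 were left without the cells that had UMIs of at least 2 endothelial markers. The outer to inner ratio was then 22.8 [6.80 to 119], and at a clustering resolution of 0.2 with all cells it was 4.59 [2.69 to 8.30]. *Tead4* had 43 of its 54 UMIs in the 2 endothelial-like classes, at 7.53 CPM [5.04 to 10.8] in non-cycling and 7.47 CPM [4.08 to 12.5] in cycling cells. In chromaffin-like cells it had 0 UMIs, which allows a level of up to 0.346 CPM, so the endothelial-like level was at least 21.8-fold higher by that limit, and the exact 95% interval of the ratio starts at 16.6. *Tead3* had 12 of its 34 UMIs in inner cortex-like cells at 1.15 CPM and 1 UMI in sustentacular-like cells, and no order of classes can be read from so few.

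The make-up of the TEAD transcripts therefore differed between lineages. *Tead1* took 99.5% of 910 Tead UMIs in chromaffin-like cells [98.7 to 99.8], 96.5% of 457 in transitioning-like cells and 86.5% of 37 in sustentacular-like cells [71.2 to 95.5]. In non-cycling endothelial-like cells it took 58.7% of 436 [53.9 to 63.4], with 34.4% from *Tead2* and 6.65% from *Tead4*. Fibroblast-like cells, with the endothelial transcripts described above, had 65.2% from *Tead1* and 32.6% from *Tead2* among 46 UMIs. Without the cells that had endothelial markers the class kept 5 *Tead1* and 4 *Tead2* UMIs, too few to place it.

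The kinases LATS1 and LATS2 inactivate YAP and TAZ. *Lats1* varied little. It was at 44.4 CPM [21.3 to 81.6] in sustentacular-like, 31.1 CPM in transitioning-like, 33.6 CPM in chromaffin-like and 33.6 to 37.5 CPM in the 4 cortex-like classes, intervals that overlap one another. Endothelial-like cells were lower at 22.1 CPM, 0.656 times the chromaffin-like level [0.509 to 0.838], and immune-like cells lower again at 12.2 CPM. Noradrenaline cells had 23.6 CPM and adrenaline cells 35.4 CPM, a ratio of 0.666 [0.443 to 0.969], the opposite direction from *Tead1*. Among the adrenaline clusters *Lats1* was at 29.8, 39.9 and 9.5 CPM, so the noradrenaline level lay within their range.

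*Lats2* did vary. It was at 84.3 CPM [50.7 to 132] from 19 UMIs in sustentacular-like cells, 92.8 CPM [60.0 to 137] in fibroblast-like cells and 64.9 CPM [57.1 to 73.5] in non-cycling endothelial-like cells, 3 intervals that overlap. Chromaffin-like cells had 3 UMIs, all in adrenaline cells, at 0.346 CPM [0.0713 to 1.01], and the sustentacular-like level was 244 times that [71.8 to 1287]. Transitioning-like cells were at 14.2 CPM, 41.0 times the chromaffin-like level [13.0 to 208] and 0.168 times the sustentacular-like level [0.0940 to 0.311]. Cortex-like classes were at 23.7 to 33.8 CPM. As a share of the UMIs of both kinases, *Lats2* took 1.02% of 295 in chromaffin-like cells [0.210 to 2.94], 31.3% of 115 in transitioning-like, 65.5% of 29 in sustentacular-like [45.7 to 82.1] and 74.6% of 335 in non-cycling endothelial-like cells [69.6 to 79.2]. The cortex-like classes lay between 41.0% and 50.0%.

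*Amotl2* was a cortical transcript above all. It reached 141 CPM [132 to 151] in fasciculata-like cells, 113 CPM [106 to 119] in inner, 87.5 CPM [79.9 to 95.7] in outer and 66.8 CPM [57.7 to 77.0] in cycling cortex-like cells, intervals that do not overlap. The order of the zones depends on where the classes are divided, as the fasciculata-like to outer ratio was 1.06 [0.916 to 1.22] at a clustering resolution of 0.8. Endothelial-like cells followed with 48.6 CPM, then sustentacular-like cells with 39.9 CPM [18.3 to 75.8] from 9 UMIs, fibroblast-like cells with 37.1 CPM and cycling endothelial-like cells with 36.3 CPM, an order that the counts do not set. Transitioning-like cells had 9.45 CPM, 6.31 times the level in chromaffin-like cells [3.09 to 13.5], which had 13 UMIs at 1.5 CPM. Immune-like cells were at 9.19 CPM from 12 UMIs, above chromaffin-like cells. In that class 51 of the 626 cells (8.15%) had UMIs of at least 2 endothelial markers, so this is not a clean level.

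To set these differences against all genes, a fold was taken with 10 CPM added to both classes, over the 12667 genes with at least 100 UMIs in all cells. *Tead3* and *Tead4* did not reach 100 UMIs, so 7 of the 9 genes enter. Between sustentacular-like and chromaffin-like cells, 4 of the 7 were at least 2-fold higher, namely *Wwtr1* (15.7-fold), *Lats2* (9.11-fold), *Amotl2* (4.34-fold) and *Tead2* (2.71-fold), where 9.76% of all genes were at least 2-fold higher. *Tead1* and *Lats1* were at 1.33-fold and 1.25-fold. The median log2 fold was 1.44 over the 7 genes and -0.08 over all genes.

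Between endothelial-like and chromaffin-like cells, 5 of the 7 genes were at least 2-fold higher, where 12.2% of all genes were. They were *Yap1*, *Wwtr1*, *Tead2*, *Lats2* and *Amotl2*, with *Wwtr1* at 11.9-fold and *Lats2* at 7.24-fold. The median log2 fold was 2.26, against 0.01 over all genes. Between cortex-like and chromaffin-like cells 4 of the 7 were, where 9.87% of all genes were, and there *Amotl2* led with 10.8-fold, before *Lats2* and *Wwtr1* at 3.62-fold each and *Yap1* at 3.03-fold. These 3 comparisons share the chromaffin-like cells, so they are not independent. In sustentacular-like cells against endothelial-like cells 0 of the 7 were at least 2-fold higher (9.26% of all genes were) and 1 was at least 2-fold lower (11.6% of all genes were), with a median log2 fold of 0.33. That gene was *Yap1*, on 1 sustentacular-like UMI, and the interval of its ratio [0.00455 to 1.04] includes equal levels. Both counts are near the shares over all genes, and nothing is read from them.

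**Figure D3:**
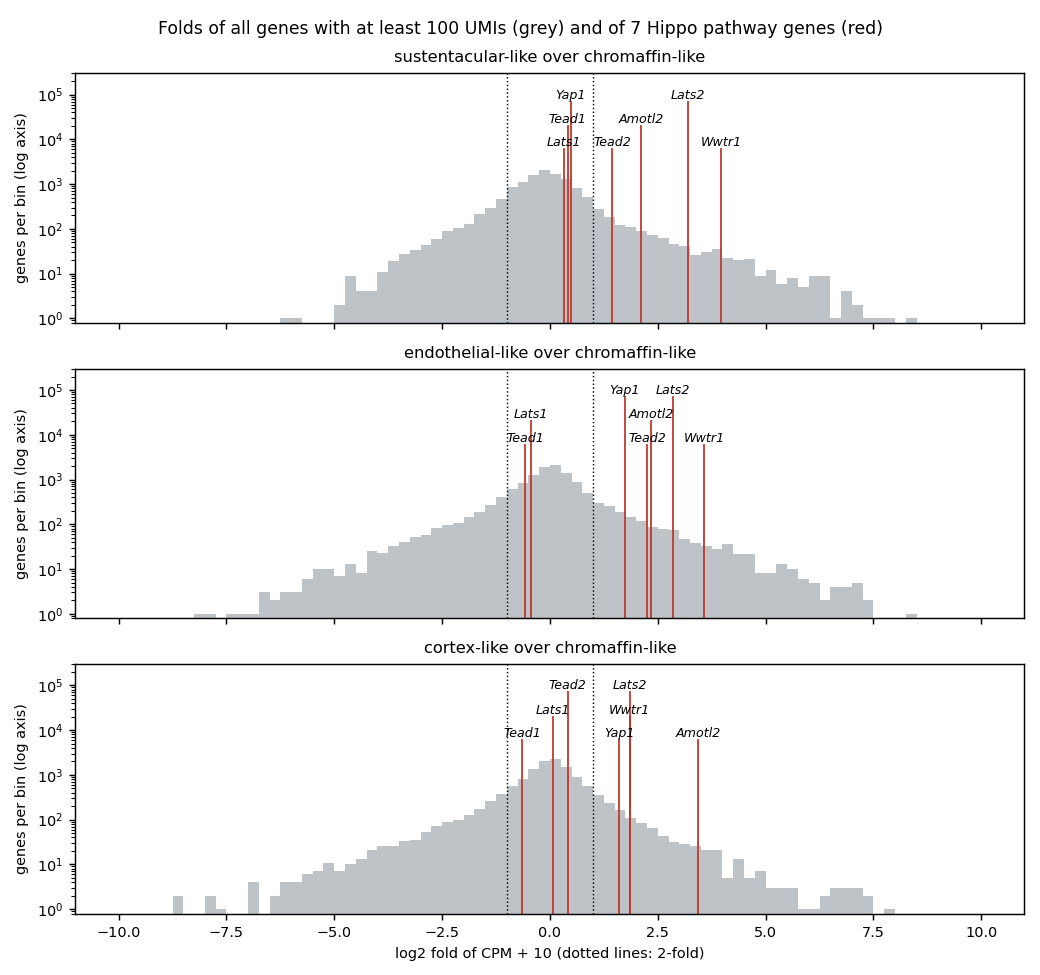
Number of genes by log2 fold of CPM + 10 in sustentacular-like (top), endothelial-like (middle) and cortex-like cells (bottom) over chromaffin-like cells, for the 12667 genes with at least 100 UMIs (grey), with 7 Hippo pathway genes in red. *Wwtr1* and *Lats2* lie right of the dotted 2-fold line in all 3 panels, while *Tead1* and *Lats1* lie between the 2-fold lines.

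Within the sustentacular-like cells the levels were set against *Sox2*, a progenitor factor, and *Sox10*, a glial and neural crest factor. The 15 cells with a *Sox2* UMI had 2 *Wwtr1* UMIs, or 112 CPM [13.5 to 404], and the 163 without had 34, or 164 CPM [113 to 229]. The single *Yap1* UMI of the class was in a cell with a *Sox2* UMI. The 70 cells with a *Sox10* UMI were at 165 CPM of *Wwtr1* [94.4 to 268] and the 108 without at 156 CPM [95 to 240.2]. Neither split gave a difference in *Wwtr1* beyond counting error. Median depths with and without the UMI were 1082 and 1170 UMIs for *Sox2*, and 1302 and 1056.5 UMIs for *Sox10*. At such depths either factor may be missed in the cells without its UMI. The 2 *Wwtr1* UMIs in cells with *Sox2* are too few to tell whether its level goes with *Sox2*.

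Markers of other cell types were also present in this class. The 8 fibroblast markers summed to 2205 CPM, with 3 of them at 0 (5.99 CPM in chromaffin-like cells), the 10 endothelial markers to 111 CPM, with 6 at 0, and the 7 chromaffin markers to 2759 CPM, with none at 0. The 75 sustentacular-like cells with UMIs of at least 2 fibroblast markers had 141 CPM of *Wwtr1* [78.8 to 232] and the other cells had 177 CPM [109 to 270.1]. The median depth was 1341 UMIs in the former and 1019 in the latter, so fibroblast transcripts may be missed in the latter. The part of fibroblast transcripts in the *Wwtr1* level was not tested. No sustentacular-like cell had UMIs of 2 or more endothelial markers. The 6 red blood cell markers, with none at 0, summed to 8973 CPM in sustentacular-like cells, more than the 7399 CPM of the 12 sustentacular markers and against 2139 CPM in chromaffin-like, 1208 CPM in transitioning-like, 2391 CPM in endothelial-like and 2602 CPM in immune-like cells. Their part in the sustentacular-like levels was not tested. *Lats2* had an interval of 51.5 to 185 CPM in the cells with fibroblast markers and was at 67.3 CPM [29.1 to 133] in those without.

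Transitioning-like cells ranked between sustentacular-like and chromaffin-like cells for *Wwtr1*, *Lats2* and *Amotl2*, but not for *Tead1*. For *Tead2* the order is not set, as the transitioning-like level was 0.333 times the sustentacular-like one [0.106 to 1.38]. Their 12 sustentacular markers summed to 1111 CPM, against 7399 CPM in sustentacular-like and 24.0 CPM in chromaffin-like cells, and their chromaffin markers to 44780 CPM, against 81333 CPM in chromaffin-like cells. With the cells that a doublet caller marked left out, the *Wwtr1* ratio of transitioning-like to chromaffin-like cells was 34.4 [14.9 to 97.3]. It had marked only 2 of the 416 transitioning-like cells (0.481%) and 0 chromaffin-like cells, so this ratio says little about doublets in the class. Cycling chromaffin-like cells, with 131 cells, had 7.74 CPM of *Wwtr1* [3.11 to 15.9] and 9.95 CPM of *Amotl2* [4.55 to 18.9], both above the intervals of the non-cycling chromaffin-like cells, as was *Lats2* with 5 UMIs at 5.53 CPM [1.79 to 12.9]. Other transcripts moved with these values: the cortex markers summed to 2383 CPM in the cycling and 198 CPM in the non-cycling chromaffin-like cells, and the sustentacular markers to 209 and 24.0 CPM. The doublet caller marked 16 of the 131 cycling cells (12.2%), and 5.34% of them had UMIs of at least 2 endothelial markers. Without the latter *Wwtr1* was at 8.28, *Amotl2* at 9.46 and *Lats2* at 4.73 CPM. The part of the cortex and sustentacular transcripts in these levels was not tested. *Tead1* was at 112 CPM and *Lats1* at 30.9 CPM in them, within counting error of the non-cycling cells.

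In the endothelial-like cells cycling made little difference. *Wwtr1* was at 0.899 times the non-cycling level [0.757 to 1.06], *Yap1* at 1.03 times [0.708 to 1.47] and *Tead1* at 0.995 times [0.796 to 1.24]. *Lats2* at 0.748 times [0.582 to 0.954] and *Amotl2* at 0.747 times [0.557 to 0.991] were lower in the cycling cells. Their cycling levels, 48.5 and 36.3 CPM, lay within the range of the non-cycling clusters, 40.2 to 99.0 and 28.9 to 70.4 CPM. These 2 differences thus depend on which non-cycling cells are compared. In the cortex the cycling cells had less *Amotl2*, at 0.587 times the non-cycling cortex-like level [0.504 to 0.680], and less *Yap1*, at 0.638 times [0.448 to 0.886], while *Wwtr1* was at 1.23 times [0.986 to 1.52]. *Lats2* was at 1.03 times in the cycling cortex-like cells [0.809 to 1.31]. The markers of the inner cortex summed to 8952 CPM in the cycling cells, and against inner cortex-like cells alone *Amotl2* was at 0.593 times [0.506 to 0.691], *Yap1* at 0.799 times [0.550 to 1.14] and *Wwtr1* at 1.60 times [1.26 to 2.03]. The differences in *Yap1* and *Wwtr1* thus depend on which cortex-like cells the cycling ones are compared with. UMIs of at least 2 endothelial markers were found in 34 of the 305 cycling cortex-like cells (11.1%), against 1.24% of inner cortex-like cells. The endothelial markers summed to 188 and 28.2 CPM in these classes, and their part in the *Wwtr1* ratio was not tested.

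The non-cycling endothelial-like cells formed 3 clusters. *Wwtr1* was at 125, 111 and 91.2 CPM in them, with overlapping intervals. The third, of 213 cells led by *Mgp* and *Lyve1*, had the highest *Lats2* at 99.0 CPM [70.1 to 136] and *Amotl2* at 70.4 CPM [46.4 to 102], and the lowest *Tead2* at 20.9 CPM [9 to 41.1]. Each of these intervals overlaps that of the first cluster, which had 67.4 CPM [57.9 to 78.0], 51.3 CPM [43.1 to 60.6] and 41.2 CPM [33.9 to 49.6] of these genes. The second, with a median of 1115.5 UMIs a cell, had the lowest *Lats2* at 40.2 CPM [27.5 to 56.7] and *Amotl2* at 28.9 CPM [18.3 to 43.4]. No cluster passed the marker rule for arterial cells.

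Among the cortex-like classes, outer cortex-like cells had more *Yap1* than inner ones, 1.75 times [1.41 to 2.17], more *Wwtr1*, 1.89 times [1.57 to 2.28], more *Tead1*, 1.61 times [1.41 to 1.84], and more *Tead2*, 37.1 times [12.1 to 185], but less *Amotl2*, 0.776 times [0.697 to 0.863]. The outer cortex-like cells also carried endothelial transcripts: the 10 endothelial markers summed to 1055 CPM there, against 28.2 CPM in inner cortex-like and 9085 CPM in non-cycling endothelial-like cells. UMIs of at least 2 endothelial markers were found in 274 of the 830 outer cortex-like cells (33.0%), 48 of the 88 fibroblast-like (54.5%) and 51 of the 626 immune-like cells (8.15%). Without those cells the outer to inner ratio was 1.33 for *Wwtr1* [1.03 to 1.70] and 22.8 for *Tead2* [6.80 to 119], and *Wwtr1* in immune-like cells went from 17.6 to 0.925 CPM. *Yap1* in outer cortex-like cells was as high without them, at 31.6 CPM. The *Amotl2* difference between fasciculata-like and outer cortex-like cells grew from 1.61 [1.44 to 1.81] to 2.03 times [1.75 to 2.37], but at a clustering resolution of 0.8 it was 1.06 times [0.916 to 1.22], so it depends on where the classes are divided. Immediate-early and heat-shock genes, which are known to respond to tissue digestion, also differed between the zones. The 13 listed summed to 5686 CPM in outer, 1404 CPM in fasciculata-like and 886 CPM in inner cortex-like cells. Of the 13, 12 were at least 2-fold lower in fasciculata-like than in outer cortex-like cells, where 3.96% of all genes were, and 12 in inner than in outer cortex-like cells, where 7.85% were. Their part in the zonal differences of the 9 genes was not tested.

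**Figure D4:**
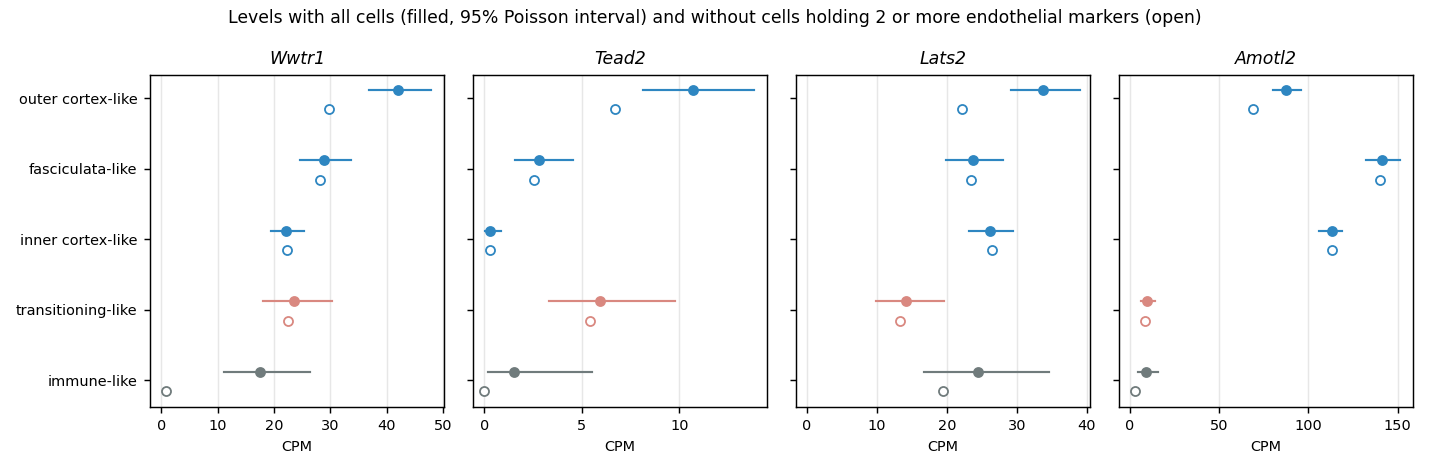
Levels in CPM of *Wwtr1*, *Tead2*, *Lats2* and *Amotl2* in 5 cell classes, with all cells (filled points, with exact Poisson 95% intervals) and without the cells that have UMIs of at least 2 endothelial markers (open points). *Wwtr1* in immune-like cells goes from 17.6 to 0.925 CPM, and *Amotl2* in outer cortex-like cells from 87.5 to 69.0 CPM.

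Upstream of LATS, the kinase core holds the Hippo kinases *Stk3* and *Stk4*, their partner *Sav1*, the LATS activators *Mob1a* and *Mob1b*, the scaffold *Nf2* and related kinases, 16 genes in all and all with at least 100 UMIs. The counts of each list stand beside the share of all 12667 genes, which for sustentacular-like over chromaffin-like cells was 9.76% higher and 12.0% lower, for endothelial-like cells 12.2% higher and 12.6% lower, and for cortex-like cells 9.87% higher and 11.5% lower. In sustentacular-like against chromaffin-like cells 3 of the 16 were at least 2-fold higher and none lower, namely *Map4k4* (217 against 53.7 CPM), *Mob1a* (84.3 against 28.1 CPM) and *Wwc2* (53.2 against 20.4 CPM), with a median log2 fold of 0.13. *Stk3* was at 17.7 and 18.7 CPM in the classes and *Stk4* at 17.7 and 37.2 CPM, with only 4 sustentacular-like UMIs each. In endothelial-like against chromaffin-like cells 5 were higher, led by *Map4k4* at 294 CPM, and 1 lower, *Tnik*, at 1.82 against 48.3 CPM. A count of 1 in 16 is below the share over all genes, and nothing is read from it. In the cortex *Nf2*, which encodes Merlin, led with 88.3 against 15.9 CPM in chromaffin-like cells, and it was far from even across the cortex, at 12.5 CPM in outer, 43.5 CPM in fasciculata-like and 153 CPM in inner cortex-like cells.

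Regulators at junctions were less even. Of 13 with enough UMIs among 16, 7 were at least 2-fold higher in sustentacular-like than in chromaffin-like cells, with a median log2 fold of 1.22. *Frmd6*, the mouse relative of the fly gene expanded, was at 102 against 5.99 CPM, and *Limd1*, an adaptor that binds LATS, at 106 against 16.6 CPM. *Wtip*, of the same adaptor family, was at 31.0 against 1.96 CPM, and *Fat1*, a giant cadherin, at 39.9 against 5.53 CPM. *Wtip* had 7 and *Fat1* 9 UMIs in sustentacular-like cells. In endothelial-like cells 7 of the 13 were higher as well, but led by *Amotl1*, another angiomotin, at 289 against 16.6 CPM, and by *Ptpn14*, a phosphatase that binds YAP, at 47.3 CPM against 0 UMIs. There *Fat1* was at 1.30 CPM. In the phosphatase complex that opposes the Hippo kinases, 1 of 9 with enough UMIs among 10 was higher in sustentacular-like cells, *Slmap* at 88.7 against 16.1 CPM, and in cortex-like cells also 1 of 9, *Mob4* at 372 against 85.1 CPM. Both counts are near the shares over all genes, and nothing is read from them.

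The Vestigial-like proteins are other cofactors that bind TEAD. *Vgll4*, which represses TEAD targets, was at 133 CPM in sustentacular-like, 222 CPM in endothelial-like and 18.3 CPM in chromaffin-like cells. *Vgll3* was at 39.9 CPM in sustentacular-like cells, from 9 UMIs, and 12.1 CPM in chromaffin-like cells, and had 1 UMI in endothelial-like cells. The other 2 genes of the family did not reach 100 UMIs. *Vgll4* was thus low in the same chromaffin-like cells that had few *Wwtr1* UMIs.

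A list of 22 known YAP and TAZ target genes, 17 with at least 100 UMIs, was then described. It holds *Lats2* and *Amotl2* themselves. In sustentacular-like against chromaffin-like cells 10 of the 17 were at least 2-fold higher (9.76% of all genes were) and none lower, with a median log2 fold of 1.22. *Tgfb2*, a growth factor, was at 430.3 against 1.38 CPM, *Ccn1*, a matricellular protein, at 119.8 against 0.230 CPM, and *Axl*, a receptor kinase, at 88.7 against 0.461 CPM. *Crim1*, at 4.44 against 10.8 CPM, and *Asap1*, at 13.3 against 34.0 CPM, had the smallest folds, on 1 and 3 sustentacular-like UMIs. In endothelial-like against chromaffin-like cells 8 were higher (12.2% of all genes were) and 2 lower (12.6% of all genes were), led by *Igfbp3*, at 113 against 0.346 CPM, and including *Crim1*, at 126 against 10.8 CPM. The lower ones were *Arhgef17* and *Rbms3*, the latter at 10.6 against 185 CPM. In cortex-like cells 5 were higher (9.87% of all genes were) and 1 lower (11.5% of all genes were), with *Myof* at 23.8 against 0.576 CPM after *Amotl2* and *Lats2*. The counts of lower targets are near or below the shares over all genes, and nothing is read from them.

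The 13 immediate-early and heat-shock genes were counted in the same way between lineages. In sustentacular-like against chromaffin-like cells 6 of the 13 were at least 2-fold higher, where 9.76% of all genes were, and none lower, with a median log2 fold of 0.81, and *Hspa1a* led with 421 against 60.0 CPM. The 13 summed to 6702 CPM in sustentacular-like, 5223 CPM in endothelial-like, 4120 CPM in chromaffin-like and 7349 CPM in immune-like cells. Their part in the levels of the target genes was not tested.

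**Figure D5:**
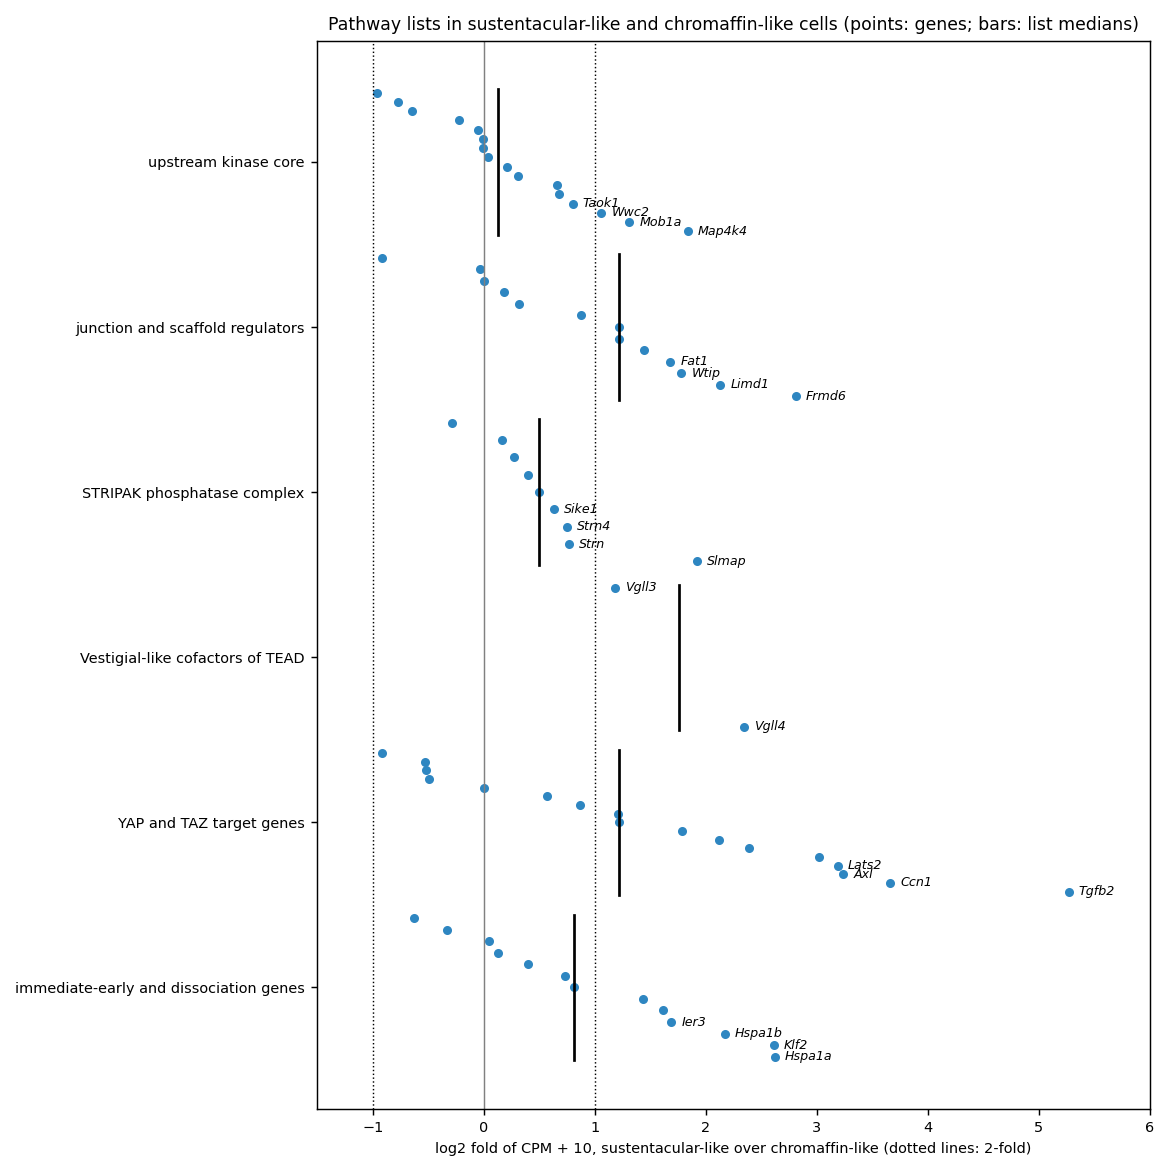
Log2 fold of CPM + 10 in sustentacular-like over chromaffin-like cells for each gene with at least 100 UMIs of 6 lists, with bars for the list medians, dotted lines at 2-fold, and the 4 largest folds of each list named. *Tgfb2* (430.3 against 1.38 CPM) stands farthest to the right, and most of the kinase core lies between the dotted lines, with a list median of 0.13.

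Across the 13 classes the genes with the pattern most like each member were found by Pearson's r of log2(CPM + 10), over genes with at least 100 UMIs. The classes share 1 library and differ in depth, so r is a description. *Wwtr1* was followed most closely by *Col4a2*, a basement membrane collagen (0.979), *Serpinh1*, a collagen chaperone (0.978), and *Lats2* (0.971). For *Lats2* they were *Cd81* (0.984), *Wwtr1* (0.971) and *Mmp14*, a membrane matrix protease (0.966). *Yap1* was followed by *Rabep2* and *Sntb2* (0.974 each), and *Amotl2* by *Akap1* (0.964), an anchor of protein kinase A at mitochondria. For *Tead1* it was *Zbtb38* (0.956), for *Tead2* *Adamtsl1* (0.977) and for *Lats1* *Ring1* (0.939). Among the members themselves *Wwtr1* went with *Lats2* (0.97) and *Tead2* (0.86), and *Yap1* with *Amotl2* (0.81), while *Wwtr1* and *Tead1* were unrelated in level (-0.00).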

How the data were processed

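The authors deposited raw UMI counts per gene and barcode, made with Cell Ranger 4.0.0 and mm10 per the submitters' processing notes, with no normalization. About 10000 viable cells entered the library, and 11214 barcodes are in the matrix. Cells with 500 to 5000 genes and at most 20% mitochondrial UMIs were kept (10139 cells). Seurat 5.3.0 in R 4.3.3 served for log-normalization and clustering (2000 variable features, 10 principal components, resolution 0.4), leaving 74 genes, the members and pathway lists, out of the variable features so that no class was defined by them. A cluster took the name of a marker list with 3 or more genes that 50% of its cells expressed. For the sustentacular, cycling, outer cortex and arterial lists the share was 25%. Among cortex zones the outer list was checked before the inner and fasciculata lists. Chromaffin clusters were called adrenaline where 50% of the cells had *Pnmt*, and noradrenaline otherwise. Scrublet in scanpy 1.11.5 called 669 cells (6.60%) doublets. Called cells were not removed as such, but many lay in the clusters with mixed markers that were left out of the classes. Among those with chromaffin and cortex markers, 216 of 274 cells were called. Leaving out all called cells before clustering was an alternative. Values were computed in Python 3.11.15 with numpy 2.4.6, scipy 1.17.1 and pandas 2.3.3, and checked on simulated data. A level with 0 UMIs was bounded at 3 counts. The members, lists and settings were chosen with earlier results of these data known. Of each pathway list the genes with the 4 largest and 2 smallest folds in a comparison may be named, with the genes of the kinase core that bind LATS or its activators, every gene of a list of at most 4, and the 3 genes most like each member. Other libraries of the study were not analysed here.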

Additional observations from a re-analysis of the deposited data

How the results depend on the processing

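With 1 library there is no replicate to leave out, and all intervals cover counting error only. No paired analysis was possible because the series has 1 sample here. Under the alternatives that gave a value, the *Wwtr1* ratio of sustentacular-like to chromaffin-like cells was 89.9 to 198, the lowest with each cell named from its own markers, the transitioning-like to chromaffin-like *Wwtr1* ratio 14.1 to 36.8, and the *Yap1* ratio 12.5 to 20, on 1 or 2 sustentacular-like UMIs. With 1 to 2 UMIs no statement on *Yap1* in these cells is firm. Members at least 2-fold higher in sustentacular-like than in chromaffin-like cells were 4, or 5 with a pseudocount of 1 CPM. The added member was *Yap1*, on 1 UMI. In endothelial-like cells they were 5 throughout. With the pseudocount of 1 CPM, 17.1% of all genes were at least 2-fold higher in sustentacular-like and 19.9% in endothelial-like cells. With 10 CPM these shares were 9.76% and 12.2%, so the counts under the 2 pseudocounts have different backgrounds. Of the member levels by class, 81.5% to 100% stayed within the intervals reported.

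The number of members with a larger share of cells in sustentacular-like than in chromaffin-like cells was 6, or 7 with cells thinned to 1000 UMIs. Of the 6, *Yap1* and *Tead3* rest on 1 UMI each in sustentacular-like cells. The same number over all genes was not counted, so nothing is read from it. Only 1 member was left when a cell needed at least 2 UMIs, as 7 of the 9 members had no sustentacular-like cell with 2 UMIs. With that limit *Wwtr1* was still larger in sustentacular-like cells (2.81% against 0), while *Tead1* (1.12% against 9.44%) and *Lats1* (0 against 1.85%) were larger in chromaffin-like cells. For outer to inner cortex-like cells the *Wwtr1* ratio ran from 1.32 to 1.95 and the *Tead2* ratio from 4.59, at resolution 0.2, to 58.1. The *Amotl2* ratio of fasciculata-like to outer cortex-like cells ran from 1.06 to 2.03. The 2.03 was the value without the cells that had endothelial markers. Beyond that and the division of the cells into classes, the cause of these ranges was not tested. The ratios named here kept their direction as point values. The interval of the *Amotl2* ratio at resolution 0.8 [0.916 to 1.22], and most intervals of the *Yap1* ratio, include equal levels. A minimum of 1000 genes a cell with a limit of 10% mitochondrial UMIs left no sustentacular-like, fasciculata-like or fibroblast-like class, so the sustentacular-like results have no value there. Naming each cell from its own markers gave 6 of the 13 classes, with cortex-like and endothelial-like cells not divided further. The 81.5% of levels given for it covers 54 levels of those 6 classes, with no cortex-like or endothelial-like level among them. Leaving out cells with endothelial markers was chosen after seeing the data.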
